A study of Mus musculus with 30 samples.

Results

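The genes that write, erase and read DNA methylation, together with the one-carbon enzymes that make its methyl donor, were examined for the methylation of their own CpGs in mouse sperm. The set was a list of 34 named genes of the 34333 protein-coding and non-coding RNA genes used from the RefSeq annotation. Its members were the CpGs inside those genes or within 2000 bp of them that had 10 or more reads, with both strands summed, in at least 10 mice of each group. These came to 2136 CpGs of 1125449 tested in the genome, and each of the 34 genes held at least 3 of them.

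Methylation was read by reduced representation bisulfite sequencing (RRBS), in which CpG-rich restriction fragments are sequenced after bisulfite has converted unmethylated cytosines. The DNA came from mature sperm of the cauda epididymis of 30 C57BL/6J males. In the cadmium group, 15 mice drank reverse-osmosis (RO) water with 0.9 ppm cadmium, prepared from cadmium chloride, at an average dose of 0.68 mg cadmium per kg of body weight, and the 15 vehicle mice drank RO water alone. All mice entered at 7 weeks of age, were housed singly on the same diet with 10% of its energy from fat, and gave sperm 9 weeks into treatment. The comparison asks whether the metal in drinking water alters methylation of these genes in sperm. A level is the share of methylated reads in a mouse, and group values are means over mice ± SD (n = 15 per group unless stated).

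Methyl groups reach DNA from S-adenosylmethionine, which the methionine cycle makes and the folate cycle feeds. Dnmt3a and Dnmt3b, with their cofactor Dnmt3l, set new methylation in male germ cells before birth, and Dnmt1 with Uhrf1 copies it at replication. Tet enzymes oxidise methylcytosine, and Tdg and Mbd4 excise damaged or oxidised bases. Promoters dense in CpGs are generally free of methylation in germ cells, whereas gene bodies and CpG-poor sequence are largely methylated.

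The promoters below are shown because their CpG content differs and the levels beside them are the ones the results turn on. They run 250 bases before to 50 after an annotated start, from RefSeq on GRCm38.p6, 5′ to 3′ on the gene's strand, with CpG in capitals. Of the 34 genes, 31 matched this table, with 42 starts. Dnmt1 starts 1, 2 and 3 lie on the minus strand at chr9:20959839-20960138, chr9:20952930-20953229 and chr9:20952574-20952873. Uhrf1 start 1 (plus strand, chr17:56303087-56303386), Tdg (plus strand, chr10:82629588-82629887), Ahcy (minus strand, chr2:155074448-155074747) and Bhmt (minus strand, chr13:93637709-93638008) follow.
Dnmt1 start 1: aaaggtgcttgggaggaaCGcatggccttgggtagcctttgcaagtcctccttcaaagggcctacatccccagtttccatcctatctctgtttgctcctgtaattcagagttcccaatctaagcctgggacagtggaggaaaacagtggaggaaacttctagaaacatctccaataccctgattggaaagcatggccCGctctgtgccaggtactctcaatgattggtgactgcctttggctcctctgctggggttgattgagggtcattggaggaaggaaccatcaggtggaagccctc
Dnmt1 start 2: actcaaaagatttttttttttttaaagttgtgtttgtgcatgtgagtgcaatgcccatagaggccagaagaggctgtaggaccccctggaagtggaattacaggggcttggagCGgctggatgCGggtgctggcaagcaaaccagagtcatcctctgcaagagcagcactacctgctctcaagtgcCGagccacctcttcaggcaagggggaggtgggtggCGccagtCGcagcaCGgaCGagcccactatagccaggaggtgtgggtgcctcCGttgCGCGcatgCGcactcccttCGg
Dnmt1 start 3: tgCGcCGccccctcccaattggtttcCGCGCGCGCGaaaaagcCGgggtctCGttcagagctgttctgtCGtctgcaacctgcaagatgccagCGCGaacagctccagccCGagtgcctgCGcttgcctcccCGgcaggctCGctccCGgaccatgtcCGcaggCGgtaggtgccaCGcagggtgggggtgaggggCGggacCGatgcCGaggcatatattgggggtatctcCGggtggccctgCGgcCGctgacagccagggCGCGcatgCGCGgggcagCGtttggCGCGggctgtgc
Uhrf1 start 1: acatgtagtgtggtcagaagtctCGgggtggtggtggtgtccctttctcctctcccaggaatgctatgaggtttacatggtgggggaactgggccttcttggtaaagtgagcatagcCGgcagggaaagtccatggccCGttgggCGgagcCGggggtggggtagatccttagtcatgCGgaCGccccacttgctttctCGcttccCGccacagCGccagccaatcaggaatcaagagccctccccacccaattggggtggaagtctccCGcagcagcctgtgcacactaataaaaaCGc
Tdg: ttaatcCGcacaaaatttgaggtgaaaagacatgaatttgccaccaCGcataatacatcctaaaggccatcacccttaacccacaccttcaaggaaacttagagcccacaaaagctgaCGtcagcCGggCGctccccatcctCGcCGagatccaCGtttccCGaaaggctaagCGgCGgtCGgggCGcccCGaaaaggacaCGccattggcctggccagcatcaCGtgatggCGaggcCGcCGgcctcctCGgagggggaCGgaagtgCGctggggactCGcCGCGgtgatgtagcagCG
Ahcy: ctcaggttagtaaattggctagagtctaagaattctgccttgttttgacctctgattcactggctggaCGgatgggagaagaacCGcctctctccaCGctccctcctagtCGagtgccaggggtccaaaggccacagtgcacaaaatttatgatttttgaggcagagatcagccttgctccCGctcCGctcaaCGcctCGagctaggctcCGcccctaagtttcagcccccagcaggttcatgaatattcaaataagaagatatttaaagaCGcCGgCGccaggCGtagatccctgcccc
Bhmt: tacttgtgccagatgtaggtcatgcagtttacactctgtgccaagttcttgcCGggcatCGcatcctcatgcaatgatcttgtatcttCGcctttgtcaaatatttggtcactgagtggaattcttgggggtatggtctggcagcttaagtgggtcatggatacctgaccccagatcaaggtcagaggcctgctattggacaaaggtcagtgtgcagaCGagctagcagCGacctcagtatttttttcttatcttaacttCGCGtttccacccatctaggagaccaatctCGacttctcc

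The letters CG, which read the same on both strands, occurred 2, 12 and 33 times in the 3 Dnmt1 promoters. They occurred 12 times in that of Uhrf1, 26 in Tdg, 13 in Ahcy and 8 in Bhmt. As few as the upstream Dnmt1 promoter holds are found in 23.0% of all annotated promoters, and as few as start 3 holds in 92.2%. The median was 22 CpGs per 300 bases over the members' promoters and 7 over all.

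Libraries held 53591172 to 94090975 cytosine reads. Their mean was 7.41e+07 ± 1.14e+07 in vehicle and 6.73e+07 ± 7.26e+06 in cadmium libraries (two-sided permutation test, p = 0.062). An unmethylated control sequence read 0.074% to 0.666% methylated. That control averaged 0.397% ± 0.161 in vehicle and 0.349% ± 0.104 in cadmium libraries (two-sided permutation test, p = 0.335). As a check of the labelled cell type, 3 genes with imprints from the father were read through 4 windows at their ends, of which 1 was over 80%. The lower-coordinate end of H19 stood at 93.7% in vehicle and 91.8% in cadmium mice, and its higher-coordinate end at 27.7% and 24.2%. The 5′ ends of Meg3 and Rasgrf1 stood at 23.9% and 1.18% in vehicle and 23.6% and 1.23% in cadmium mice. Windows at gene ends need not cover the imprinted stretch, so a low level in them does not show that an imprint is missing. Maternal germline differentially methylated regions (DMRs), which sperm carry unmethylated and body cells carry methylated on the copy from the mother, were measured at 18 of 23 listed genes through 21 windows. Of these windows 17 averaged under 20%, 3 stood at 20 to 80% and 1, the lower-coordinate end of Peg13, was over 80%, and none was at 0 over all mice. The smallest p belonged to the Nnat 5′ end, at 13.8% in vehicle and 24.0% in cadmium mice (p = 0.044, adjusted p = 1 by the logistic model with Benjamini-Hochberg adjustment). The mean of 15 of these gene-end windows, those read in all mice with an average under 20%, is called here the maternal germline DMR level. Such windows need not cover the DMR itself. The cut left out the 5′ ends of Plagl1 and Mest and the 3′ end of Nnat, at 21.5%, 26.5% and 23.3% over all mice. The level is therefore lower than it would be with them. Its windows cover 12 distinct stretches, since those of Sgce and Peg10, of Peg3 and Usp29, and the pair of Mcts2 share CpGs. It was 13.1% ± 8.10 in vehicle mice (2.80% to 30.02%) and 16.3% ± 5.67 in cadmium mice (5.74% to 25.5%), with p = 0.214 by the same test, and 3 mice, 1 of them cadmium, exceeded 25%. Of 7 genes of the epididymal epithelium, 6 were measured through 8 windows, 2 of them under 20%, 4 at 20 to 80% and 2 over 80%. Of 4 leukocyte genes 1 was measured, Coro1a, at 2.81% in vehicle and 1.68% in cadmium mice at its 5′ end. Its 3′ end stood at 97.2% in 15 vehicle and 92.5% in 14 cadmium mice. What body cells contribute to the results was not tested.

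The starts of these genes were almost free of methylation in sperm of both groups, and their bodies were largely methylated. For each gene the reads were summed over 3 compartments: the windows of 1000 bp either side of the 5′ and 3′ ends and the body between them, each with 3 or more tested CpGs. The 5′ end was measured in 27 members, with a median over genes of 0.60% in vehicle mice beside 0.766% over the 13652 genes so measured. It was under 20% in 26 members (96.3%, beside 84.8% of all genes). For Mbd1, Mbd2 and Mat1a no strand was available, so their ends are named by coordinate. Their lower-coordinate ends stood at 1.46%, 0.502% and 15.4% in vehicle mice. Bodies were measured in 27 members, with a median of 81.3% in vehicle mice beside 76.6% over 17453 genes. In cadmium mice both medians were 76.8%. Of the 27 bodies, 14 were over 80% (51.9%, beside 46.1% of all genes) and 10 lay between 20 and 80%. The other 3 were under 20% (11.1%, beside 15.1%). These body shares were near those of all genes. The 3′ end was measured in 5 members, of which 4 were over 80%, beside 44.5% of the 4485 genes so measured. The remaining 1 was under 20%, beside 30.1% of all genes.

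**Figure D1:**
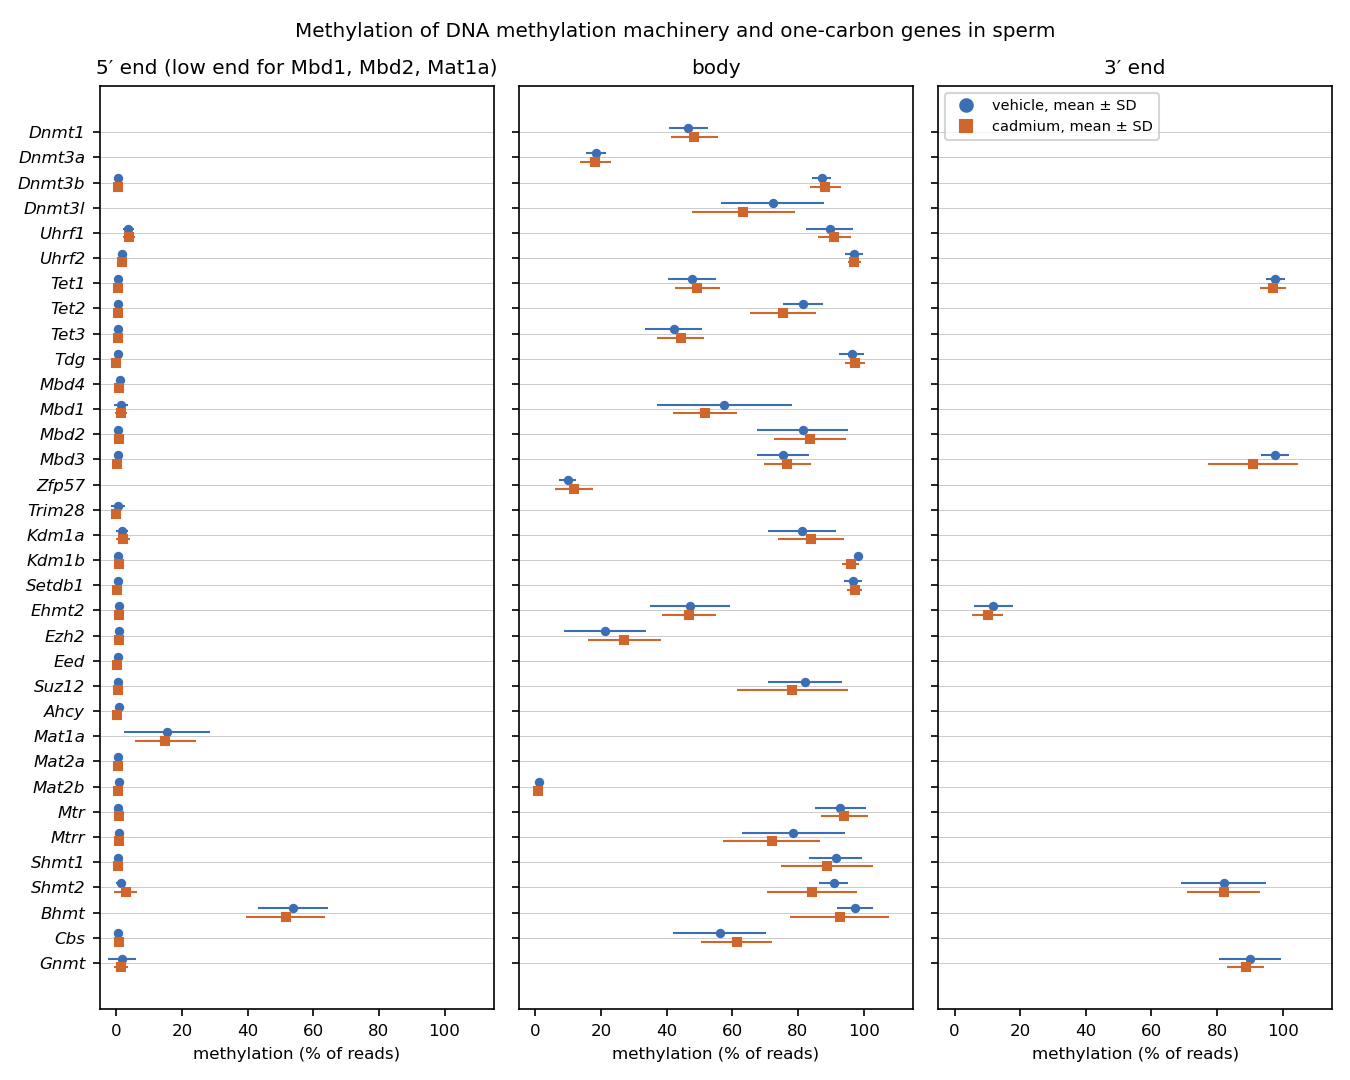
Methylation (% of reads, x axis) of each member (rows, grouped by role) at the 5′ end, in the body and at the 3′ end, as the mean ± SD of 15 vehicle mice (circles) and 15 cadmium mice (squares), with 14 and 13 mice for the Shmt1 body. The 5′ ends sit near 0 apart from Bhmt at 53.8% and the lower-coordinate end of Mat1a at 15.4% in vehicle mice, and the bars of the 2 groups overlap in every compartment.

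Among the writers, Dnmt1, the maintenance methyltransferase, combined unmethylated inner starts with a partly methylated stretch inside its upstream start. The inner starts, read over CpGs within 500 bp, stood at 0.298% ± 0.706 (start 2, 28 CpGs) and 0.534% ± 0.533 (start 3, 39 CpGs) in vehicle mice, and at 0.261% ± 0.491 and 0.627% ± 0.545 in cadmium mice. These windows overlap and share CpGs. The upstream start, whose promoter holds 2 CpGs, had no tested CpG within 500 bp. A region of 6 CpGs at chr9:20958753-20958896, 1064 bp into the gene from that start, ranged from 16.6% through a median of 37.7% to 76.8% in vehicle mice and from 16.6% through 46.4% to 86.7% in cadmium mice. The groups covered the same span, and the mice within each group differed widely. Cadmium minus vehicle came to 2.61 points (95% limits -10.7 and 16.0, p = 0.261, adjusted p = 0.992 by the logistic model with Benjamini-Hochberg adjustment over all regions). The 6 Dnmt1 regions between chr9:20908506 and chr9:20943815 averaged over 89% in both groups. Summed over its 94 CpGs, the Dnmt1 body had a lowest, median and highest level of 29.8%, 47.9% and 55.1% in vehicle mice and 34.3%, 48.7% and 61.0% in cadmium mice.

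Dnmt3a, a de novo methyltransferase, was unmethylated at all of its 3 annotated starts. In vehicle mice the outer pair stood at 0.593% ± 0.239 and 0.591% ± 0.22, and the inner start, at position 3891744 of chromosome 12, at 2.33% ± 3.19. In cadmium mice they stood at 0.455% ± 0.283, 0.484% ± 0.320 and 1.47% ± 1.31. Since these starts lie inside the gene's outer bounds, the Dnmt3a body of 263 CpGs averaged 18.5% ± 3.05 in vehicle and 18.2% ± 4.70 in cadmium mice, and 216 of its CpGs were under 20%. Outside the starts, a Dnmt3a region at chr12:3912975-3913133 stood at 92.8% in vehicle and 90.7% in cadmium mice. The non-coding genes Dnmt3aos and Gm31623 end inside this body, so some of its CpGs belong to more than 1 annotated gene.

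Dnmt3b, the other de novo enzyme, had a 5′ end of 83 CpGs at 0.538% ± 0.341 in vehicle and 0.534% ± 0.319 in cadmium mice. Its body stood at 87.2% ± 2.95 and 88.3% ± 4.69 in the same order, a gap of 1.10 points with 95% limits of -1.86 and 4.05. Dnmt3l, the catalytically inactive cofactor active in prospermatogonia, had promoters of only 6, 4 and 3 CpGs at its 3 starts, and none of the starts had 3 tested CpGs within 500 bp. The Dnmt3l body of 11 CpGs, which overlaps the end of Aire, varied most among the writers. It ran from 34.9% through a median of 71.4% to 99.6% in vehicle mice and from 32.7% through 62.1% to 86.5% in cadmium mice. The groups overlapped over most of this range, and cadmium minus vehicle came to -8.99 points (95% limits -20.7 and 2.75, p = 0.214, adjusted p = 1 by the logistic model with Benjamini-Hochberg adjustment).

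Uhrf1, which brings Dnmt1 to hemimethylated DNA, stood higher at the outer of its 2 starts. Start 1 stood at 9.52% ± 3.96 in vehicle and 11.02% ± 6.83 in cadmium mice over 12 CpGs. Start 2, inside the gene with 33 CpGs per 300 bases, stood at 0.397% ± 0.521 and 0.134% ± 0.259 over 34 CpGs. Just upstream of start 1, a region of 3 CpGs at chr17:56302816-56302866 reached 38.6% in the highest vehicle mouse and 42.7% in the highest cadmium mouse, with medians of 19.1% and 20.1%. Both starts were read in the window of the Uhrf1 5′ end, which averaged 3.69% ± 1.58 in vehicle and 3.82% ± 1.90 in cadmium mice. Its body stood at 89.7% ± 7.10 and 91.0% ± 4.99. Uhrf2, a relative of Uhrf1, stood at 1.63% ± 1.19 in vehicle and 1.66% ± 0.764 in cadmium mice at the 5′ end and at 97.2% in the body of both.

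Of all 42 annotated starts of members, 34 had 3 or more tested CpGs within 500 bp, and all 34 were under 20% in vehicle mice. Over all annotated starts so measured, 15521, the share was 89.3%. Starts poor in CpGs were seldom read: none of the 4 member promoters with 5 or fewer CpGs was measured. Across the genome 1130 such starts were measured, and 35.2% of them were under 20%, beside 99.5% of the 8425 starts with 20 or more CpGs. The members' median in that CpG-rich class, 22 starts, was 0.553%, beside 0.537% over all.

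**Figure D2:**
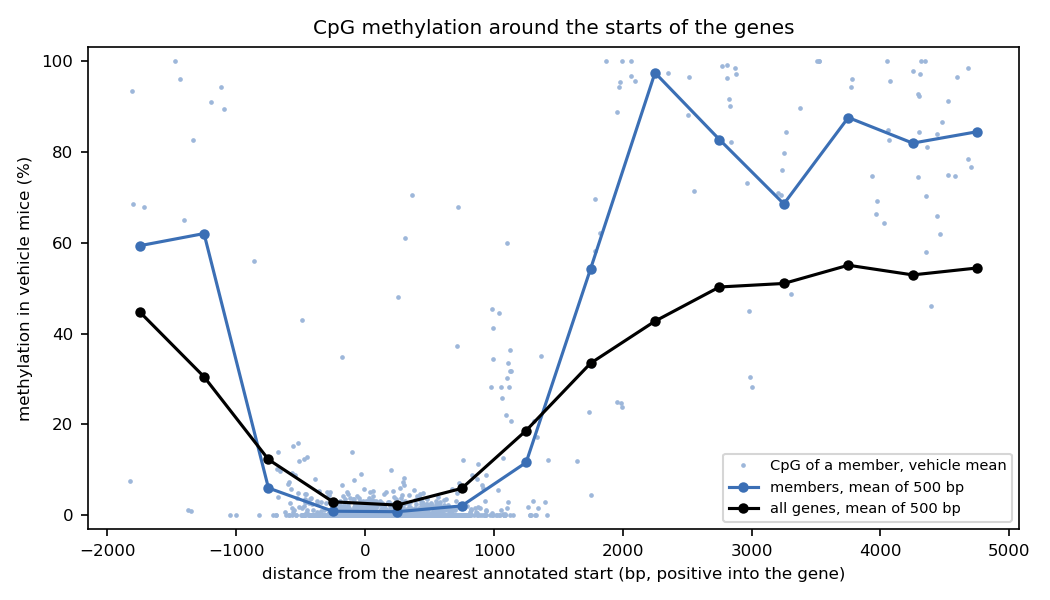
CpG methylation in vehicle mice (% of reads, y axis) against distance from the nearest annotated start (bp, x axis). Small points are CpGs of members and lines are means in steps of 500 bp for members and for all genes. Within 500 bp of a start the members' means are 0.928% before and 0.824% after it, and beyond 2000 bp into the gene they lie above the means of all genes.

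By distance, the CpGs of the members averaged 0.824% in the first 500 bp inside a start and 2.10% in the next 500 bp, beside 2.28% and 5.95% over all genes. The mean reached 54.2% (15 CpGs) between 1500 and 2000 bp and 97.3% (4 CpGs) between 2000 and 2500 bp, where all genes averaged 33.5% and 42.7%. The outer steps hold few member CpGs, and no test was made of these means.

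Bhmt, which remethylates homocysteine with betaine in liver and kidney, was the only 1 of the 27 measured members with a 5′ end of intermediate methylation. Its 3 CpGs ran from 34.7% through a median of 53.7% to 70.3% in vehicle mice and from 31.7% through 51.7% to 75.4% in cadmium mice. The groups overlapped almost fully. Cadmium minus vehicle came to -2.13 points (95% limits -10.6 and 6.37, p = 0.382, adjusted p = 1 by the logistic model with Benjamini-Hochberg adjustment). A median of 168.5 reads per mouse stood behind these values. Only 2 of the CpGs were within 500 bp of the start shown above. Its body was read through 3 CpGs at 97.5% ± 5.49 in vehicle and 92.7% ± 15.1 in cadmium mice.

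The erasers shared the pattern of open starts. Tet1, Tet2 and Tet3, the methylcytosine dioxygenases, stood at 0.601% ± 0.603, 0.457% ± 0.350 and 0.378% ± 0.509 at the 5′ end in vehicle mice. In cadmium mice the same ends stood at 0.550% ± 0.577, 0.583% ± 0.443 and 0.528% ± 0.401. Their bodies differed: Tet1 averaged 47.7% ± 7.27, Tet2 81.4% ± 6.15 and Tet3 42.1% ± 8.67 in vehicle mice. In cadmium mice they averaged 49.3% ± 6.85, 75.4% ± 10.1 and 44.2% ± 7.25. The Tet3 body holds another annotated start at position 83441678 of chromosome 6, read at 0.659% ± 0.421 in vehicle and 0.726% ± 0.645 in cadmium mice. Mbd4, a thymine glycosylase whose 5′ end also holds an end of Ift122, stood at 1.15% ± 0.743 in vehicle and 0.964% ± 1.11 in cadmium mice.

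Among the readers, Mbd3 of the NuRD complex stood at 0.453% and 0.334% at the 5′ end, 75.5% and 76.8% in the body and 97.6% and 90.9% at the 3′ end, in vehicle and cadmium mice. Zfp57, which keeps imprints methylated after fertilisation, was measured in its body only, at 9.90% ± 2.60 and 11.7% ± 5.76. An inner start, at position 37002525 of chromosome 17, was read at 1.08% ± 1.14 in vehicle and 1.03% ± 1.25 in cadmium mice. Trim28, the corepressor that Zfp57 recruits, was at 0% in 13 of 15 vehicle and 14 of 15 cadmium mice at its 5′ end, and 1 vehicle mouse reached 8.36%.

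The genes of histone modification had 5′ ends between 0.520% (Eed) and 1.76% (Kdm1a) in vehicle mice. Ezh2, the methyltransferase of Polycomb repressive complex 2, and its partners Eed and Suz12 stood at 0.712% ± 0.496, 0.520% ± 0.455 and 0.551% ± 0.308. Ehmt2, the H3K9 methyltransferase G9a, was the only 1 of the 5 measured members with a 3′ end under 20%, at 11.7% ± 5.91 in vehicle and 10.1% ± 4.72 in cadmium mice. That window also holds an end of the neighbouring gene Slc44a4. Setdb1, another H3K9 methyltransferase, stood at 0.649% ± 1.05 and 0.201% ± 0.419 at the 5′ end and at 96.8% and 97.2% in the body.

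Of the one-carbon genes, Mtr, methionine synthase, and Mtrr, its reductase, were under 3% at the 5′ end in both groups. So were the hydroxymethyltransferases Shmt1 and Shmt2, the transsulfuration gene Cbs and Mat2a, which makes S-adenosylmethionine outside the liver. Mat2b, the regulatory subunit of that enzyme, was also open in its body, at 0.961% ± 1.01 in vehicle and 0.810% ± 0.805 in cadmium mice, and an annotated start lies in that body. Gnmt, a liver enzyme that uses up excess S-adenosylmethionine, stood at 1.75% ± 4.18 in vehicle and 1.34% ± 2.12 in cadmium mice at the 5′ end, where 1 vehicle mouse reached 15.2%. Mat1a, the liver form of the synthetase, was read through 3 CpGs at its lower-coordinate end, from 0.625% through 11.6% to 51.2% in vehicle mice and from 0% through 13.6% to 39.9% in cadmium mice.

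Between the groups, no member passed the test of treatment. None of the 62 compartments of members was called at an adjusted p under 0.05 (all compartments: 0%), nor any of the 2136 CpGs (all CpGs: 0.000533%) or of the 161 regions, runs of at least 3 CpGs with gaps of up to 100 bp (all regions: 0.000974%). The smallest adjusted p was 0.712 for compartments, 0.153 for CpGs and 0.38 for regions, by the logistic model with Benjamini-Hochberg adjustment over all features of the kind. At an unadjusted p under 0.05 stood 3 compartments (4.84%, beside 4.71% of all), 219 CpGs (10.3%, beside 10.1%) and 13 regions (8.07%, beside 6.02%). The shares of compartments and CpGs were near the background. Of the CpGs 118 were higher in cadmium mice (5.52%, beside 5.32%) and 101 lower (4.73%, beside 4.75%). Of the regions 6 were higher (3.73%, beside 3%) and 7 lower (4.35%, beside 3.02%). With limma, which also called 0 features of members, 3 compartments, 23 CpGs and 5 regions had an unadjusted p under 0.05. The count of CpGs thus depended on the test, since the logistic model gave 219. The limma shares over all features are not given here, so these counts are not read against a background. The median difference, cadmium minus vehicle, was -0.08 points over member compartments and 0.05 over all.

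The 3 compartments with an unadjusted p under 0.05 were all lower in cadmium mice (all compartments: 2.04% lower and 2.67% higher). In the body of Kdm1b, the histone demethylase that maternal imprints require in oocytes, 15 CpGs ran from 96.5% through a median of 98.1% to 100% in vehicle mice and from 92.0% through 96.4% to 100% in cadmium mice. The cadmium mice reached lower, while 2 of them and 3 vehicle mice were fully methylated. Cadmium minus vehicle came to -2.26 points (95% limits -3.79 and -0.74, p = 0.0025, adjusted p = 0.712 by the logistic model with Benjamini-Hochberg adjustment).

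Tdg, the thymine DNA glycosylase that removes oxidised methylcytosine, read 0% at its 5′ end in 14 of 15 cadmium mice, with 0.251% in the other. In vehicle mice the median was also 0, and 6 mice were above 0, of which 4 exceeded 1% and the highest reached 2.34%. The means were 0.524% ± 0.885 and 0.0167% ± 0.0647 (p = 0.0067, adjusted p = 0.9 by the logistic model with Benjamini-Hochberg adjustment). Ahcy, which clears S-adenosylhomocysteine, ran from 0 through 0.788% to 2.03% in vehicle mice and from 0 through 0.127% to 0.802% in cadmium mice at its 5′ end. Its means were 0.736% ± 0.593 and 0.303% ± 0.324 (p = 0.014, adjusted p = 0.938 by the same model and adjustment). The lower and middle values of the groups overlapped for both genes. The unmethylated control ran from 0.074% to 0.666%, and no level in or below that range can be told from incomplete conversion. The highest vehicle mice of both genes lay above it. The non-coding genes Gm39966 and Gm45609 also end in the Ahcy window.

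The next smallest p values belonged to bodies. Tet2 ran from 68.6% through 81.5% to 92.1% in vehicle mice and from 54.6% through 76.0% to 88.8% in cadmium mice, a gap of -6.07 points (95% limits -12.4 and 0.24, p = 0.0558). Ezh2 ran from 4.13% through 17.5% to 48.6% in vehicle mice and from 5.60% through 27.5% to 44.5% in cadmium mice, a gap of 5.99 points (95% limits -2.92 and 14.9, p = 0.0908). In both the groups overlapped over most of their range, and the adjusted p was 1 by the logistic model with Benjamini-Hochberg adjustment.

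**Figure D3:**
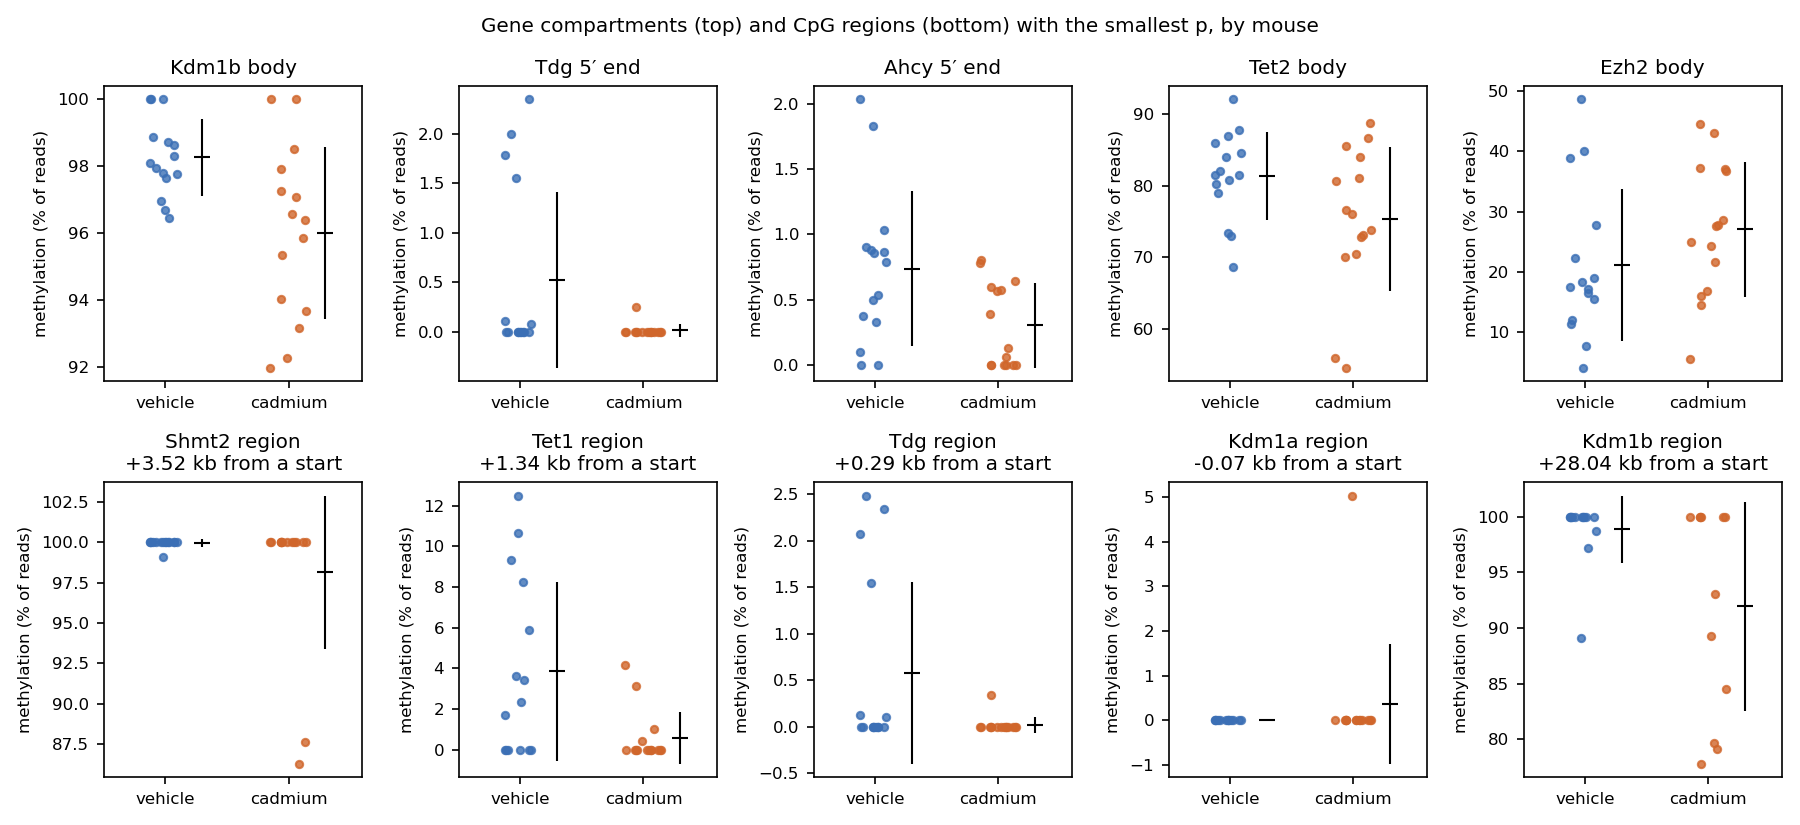
Methylation (% of reads, y axes that differ between panels) of each mouse for the 5 member compartments (top) and 5 member CpG regions (bottom) with the smallest p, where each point is a mouse and the bars give the mean ± SD of the group. At Tdg, 4 vehicle mice stand above 1% while 14 of 15 cadmium mice are at 0, and in every panel the groups overlap.

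The 5 regions with the smallest p included an edge of the Tet1 start. At chr10:62885904-62886059, 1343 bp inside the Tet1 start, 5 CpGs were above 0 in 9 of 15 vehicle mice, with a median of 2.35% and a highest level of 12.5%. They were above 0 in 4 of 15 cadmium mice, with a highest level of 4.14%. The means were 3.85% ± 4.40 and 0.579% ± 1.28 (p = 0.0037, adjusted p = 0.49 by the logistic model with Benjamini-Hochberg adjustment). The adjoining region toward the start, chr10:62886179-62886465 with 15 CpGs, was above 0 in 13 of 15 vehicle and 6 of 15 cadmium mice, with means of 1.01% ± 1.03 and 0.272% ± 0.490. Within the Tet1 5′ end itself the groups differed by -0.05 points (95% limits -0.49 and 0.39). The next region further into the gene, 3 CpGs at chr10:62885563-62885584, went the other way, at 18.1% ± 28.5 in 14 vehicle and 26.6% ± 29.5 in 14 cadmium mice (unadjusted p = 0.873 by the same model). The region after it, at chr10:62885331-62885367, averaged 24.5% in both groups.

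Of the other 4 regions, those of Shmt2 and Kdm1a rested on 1 or 2 cadmium mice. In Shmt2, the mitochondrial serine hydroxymethyltransferase, the 3 CpGs at chr10:127518920-127518938 were at 100% in 14 of 15 vehicle mice, with 99.1% in the other. They were at 100% in 12 of 14 cadmium mice, with 86.3% and 87.6% in the rest (p = 0.0016, adjusted p = 0.38 by the logistic model with Benjamini-Hochberg adjustment). In Kdm1a, a histone demethylase, 6 CpGs at chr4:136602769-136602814 in the 5′ end were at 0 in all 13 vehicle mice and in 13 of 14 cadmium mice, and the last cadmium mouse read 5.04%. Without that mouse both groups were at 0. The Tdg region, chr10:82630045-82630210, held 19 of the 24 CpGs of the 5′ end described above. In Kdm1b, 3 CpGs at chr13:47071517-47071566 were below 90% in 1 of 13 vehicle and 5 of 12 cadmium mice, with medians of 100% and 96.5%. The adjusted p of these 3 regions lay between 0.531 and 0.555 by the same model and adjustment.

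Of single CpGs, the 5 with the smallest p were at a limit of 0 or 100% in all mice of 1 group. In Mbd2, a reader of methylated CpGs, the CpG at position 70568792 of chromosome 18 was at 0% in all 14 cadmium mice and above 0 in 6 of 15 vehicle mice, up to 21.5% (p = 0.0001, adjusted p = 0.153 by the logistic model with Benjamini-Hochberg adjustment). The region of 21 CpGs that begins at this CpG went the other way, at 0.740% ± 0.664 in vehicle and 1.07% ± 1.01 in cadmium mice. In Tet1, the CpG at position 62886289 of chromosome 10, inside the region beside the start, was at 0% in all cadmium mice and above 0 in 5 of 15 vehicle mice, up to 26.1%. In Shmt2, the CpG at position 127517763 of chromosome 10 was at 100% in all 12 cadmium mice and averaged 78.4% ± 31.8 in 10 vehicle mice, 1 of which read 0%. The CpGs of Uhrf2 (position 30039999 of chromosome 19) and Suz12 (position 80004788 of chromosome 11) were at 100% in all measured vehicle mice. They were below 100% in 4 of 15 and 3 of 12 cadmium mice, with means of 97.3% ± 4.93 and 95.3% ± 8.98. The last 4 had adjusted p values of 0.183 to 0.196 by the same model and adjustment, and the median depth of the 5 CpGs ran from 19.5 to 76 reads per mouse.

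The members that varied most between mice did so within both groups. Among compartments measured in every mouse the SD over all 30 mice was largest in the bodies of Mbd1 (16.1 points), Dnmt3l (16.1), Mtrr (15.4), Suz12 (14.3) and Cbs (12.6). Mbd1, a reader with a zinc finger for unmethylated CpGs, ran from 29.4% through 53.4% to 100% in vehicle mice and from 37.7% through 53.4% to 70.8% in cadmium mice. Mtrr ran from 40.2% through 78.2% to 100% and from 47.4% through 76.7% to 95.3% in the same order. Suz12 ran from 51.6% through 84.5% to 100% and from 33.7% through 83.3% to 100%. Cbs ran from 33.5% through 55.4% to 86.1% and from 38.1% through 59.9% to 84.7%. The differences between group means were smaller than this SD, but the bodies were chosen for a large SD, so nothing about treatment follows from that.

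The levels of many members moved with the maternal germline DMR level across mice, as did many features of the genome. Over the 26 member compartments measured in every mouse with a mean of 5 to 95%, 12 had an adjusted p of Pearson's r under 0.05 (46.2%, beside 47.6% of the 18993 compartments so measured), 4 with a positive and 8 with a negative sign (all: 18.4% and 29.3%). The members' share was near the background. With overlapping windows joined, so that each CpG entered the maternal level once, the same 12 member compartments passed, beside 52.2% of all. By unweighted means over CpGs read in every mouse, 10 of 19 member compartments passed, beside 48.8% of all. P values came from two-sided permutation tests with 100000 resamples and were adjusted by the Benjamini-Hochberg method over all compartments. Over regions, 26 of 37 in 17 members passed (70.3%, beside 53.3% of 33949), 9 positive and 17 negative (all: 24.8% and 28.5%). All of these relations rest on the same 30 mice and the same level, so they are not separate findings.

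Tet1 had the highest positive relation among bodies, with r = 0.78 and rho = 0.79 (permutation p = 1e-05 for each, the smallest these resamples can give, adjusted p = 0.00016 and 0.00019). It was 0.69 within cadmium mice, 0.86 within vehicle mice and 0.73 when vehicle mice 4 and 13 were left out, whose maternal levels lay farthest off the median. Negative relations of similar size were found in the bodies of Mtrr (r = -0.72, rho = -0.72), Ehmt2 (r = -0.71, rho = -0.74) and Mbd2 (r = -0.71, rho = -0.69), with adjusted permutation p from 0.00019 to 0.00052. Without the same 2 mice r was -0.69, -0.63 and -0.60. The relation of the Cbs body, r = 0.58 and rho = 0.58 (adjusted permutation p = 0.0032 and 0.0042), was 0.82 within vehicle and 0.06 within cadmium mice. The difference between the groups' r was not tested.

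In Cbs the relation was closest at chr17:31636072-31636149, 7 CpGs lying 1095 bp inside the start. This region ran from 4.52% through 13.3% to 78.6% in vehicle mice and from 10.6% through 28.7% to 77.9% in cadmium mice. Its r was 0.80 and rho 0.84 (adjusted permutation p = 0.00017 and 0.00021), with 0.57 in cadmium mice, 0.93 in vehicle mice and 0.73 without the 2 farthest. The Tet1 region at chr10:62885331-62885367 ran from 1.43% through 19.5% to 59.2% in vehicle mice and from 4.86% through 21.2% to 56.9% in cadmium mice, with r = 0.76 and rho = 0.76. In the other direction, an Ehmt2 region at chr17:34912724-34912877 gave r = -0.76 and rho = -0.77 and a Dnmt3a region at chr12:3866957-3867011 gave r = -0.75 and rho = -0.73. Adjusted permutation p of these 3 regions lay between 0.00017 and 0.00036. Dnmt1 stood lower: its region inside the upstream start gave r = 0.44 and rho = 0.44 (adjusted permutation p = 0.032 and 0.033), and its body r = -0.11 and rho = -0.19 (adjusted permutation p = 0.658 and 0.397). Of the 37 member regions compared with the maternal level, 33 had an r of the same sign in both groups. The share over all regions was not computed, so this count is not read as a trait of the members. The 26 that passed were all among these 33. Those 26 were chosen by r over the same mice, so their shared sign is no separate test of the relation.

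**Figure D4:**
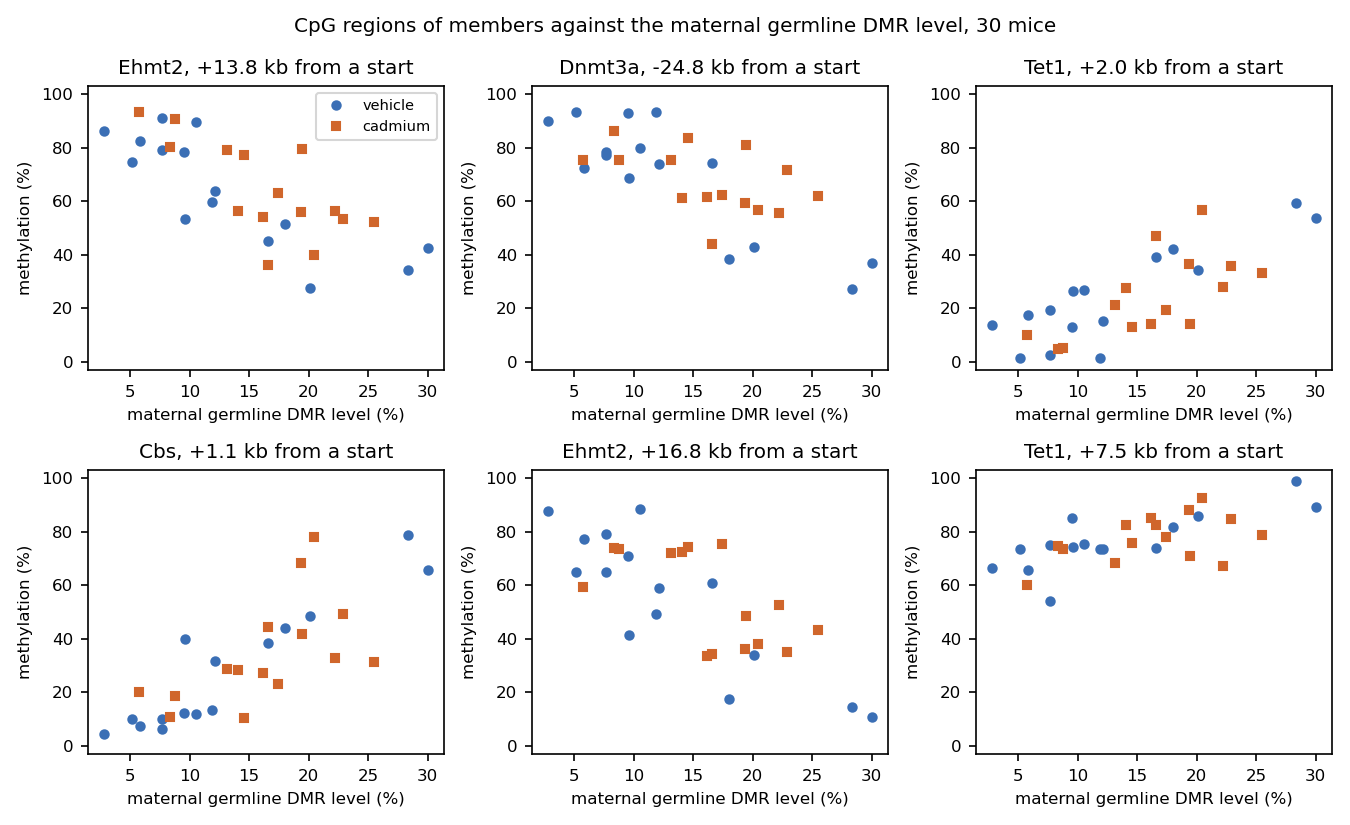
Methylation (%, y axis) of the 6 member regions with the smallest permutation p against the maternal germline DMR level of the mouse (%, x axis), for 15 vehicle mice (circles) and 15 cadmium mice (squares). The Cbs and Tet1 regions are higher and the Ehmt2 and Dnmt3a regions lower in mice with a higher maternal level, and both groups lie along the same spread.

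Other genes of these pathways were not called either. A list of 81 further genes, of folate transport and the folate cycle, methionine and polyamine metabolism, base excision, other methyl-binding proteins and chromatin cofactors, gave 136 compartments of 78 genes. None was called (all compartments: 0%), and 8 (5.88%, beside 4.71% of all) had an unadjusted p under 0.05. Of these, 3 were higher and 5 lower in cadmium mice (all compartments: 2.67% higher and 2.04% lower). Of 57 5′ ends in that list, 56 were under 20%, beside 84.8% of the 5′ ends of all genes. The 2 smallest p values belonged to Tyms, thymidylate synthase, and Srm, spermidine synthase. The Tyms 5′ end stood at 0.850% ± 1.23 in vehicle and 0.0456% ± 0.128 in cadmium mice (adjusted p = 0.619 by the logistic model with Benjamini-Hochberg adjustment). The lower-coordinate end of Srm stood at 1.01% ± 0.541 and 0.516% ± 0.361 (adjusted p = 0.669 by the same model and adjustment).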

How the data were processed

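Sperm DNA of 15 cadmium and 15 vehicle mice was read by RRBS. The deposited tables list CpG cytosines by strand with a read count and the methylated fraction; per the submitters' processing notes, the tools were methylKit 1.12.0, Bismark 0.22.3, Trim Galore 0.5.0 and bcl2fastq and the builds mm10 and GRCm38, whose roles are not given in the sources used here. Methylated reads were the rounded product of both columns, which was within 0.1 of a whole number except at 1 cytosine or none in a library. No minimum had been applied to the deposited counts.

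CpGs in the top 0.1% of a mouse's coverage were left out, and autosomes and X were used. A logistic model with Pearson dispersion of at least 1 and an F test compared treatments. Python 3.11.15, scipy 1.17.1 and limma 3.58.1 (R 4.3.3) were used, and the scripts were run on simulated data. The result of that run is not given here, so it is not taken as a check of the p values. By the logistic model 10.1% of all CpGs had an unadjusted p under 0.05. Whether its p values for single CpGs are too small was not tested. Intervals of differences, at 95%, come from the SDs of the mice. P values of low-level features with few nonzero mice, and of almost fully methylated features with few mice below that limit, are approximate. Reads of a fragment are not independent molecules. Gene bounds and starts came from RefSeq on GRCm38.p6, which gives no exons, so exon, intron and UTR contexts were not used here. In 18 members another gene ends inside a tested compartment.

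The members and lists were chosen with earlier results of these data known. All members are accounted for. Given in full were the 5 compartments, CpGs and regions with the smallest p, ends of 20 to 80%, the 5 largest SDs, and Dnmt1, Dnmt3a, Dnmt3b, Dnmt3l, Tet1, Tet2, Tet3 and Uhrf1; other named values are descriptions chosen after they were seen. The relations to the maternal level were planned with an adjustment over member compartments and were adjusted over all compartments instead. The least different pair of libraries within a group had a mean chi-square per CpG of 10.3 (210 pairs), and across groups 10.6, so none was treated as a repeat. The labels do not say that mice were independent litters.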

Additional observations from a re-analysis of the deposited data

How the results depend on the processing

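No compartment, CpG or region of the members was called under any alternative run: 5 or 20 reads, all 15 mice, no upper coverage limit, limma without or with a replicate block, coverage or the maternal level, an SD filter of 2 points, a minimum difference of 5 points, wider windows or gaps of 300 bp, means over CpGs, and leaving out the 3 mice over 25% at maternal DMRs (the last and the maternal covariate were added after seeing the data). The smallest adjusted p over these was 0.475 for compartments (5 reads), 0.095 for CpGs (without the 3 mice) and 0.179 for regions (all 15 mice). With 12 member compartments related to the maternal level, 26 were counted by region and 10 of 19 by means over CpGs (all compartments: 48.8%), and 12 again with each CpG of the maternal windows counted once, all added later. Replicate numbers are shared by the groups, but 6 of 15 same-number pairs had deviations correlated over 0.1 (-0.27 to 0.69) and 2 of 15 cadmium mice had their own number as best match, so they were not taken as pairs; the replicate block gave 0 calls of each kind. Of 380 alternatives of 33 named features, 361 kept their sign and side of the threshold and 19 turned sign, none of them called. The SD filter and the minimum difference kept the main differences, so no sign could turn under them. Limma without a covariate takes the same difference of group means, so its sign was fixed too. The minimum difference could only remove calls. The 361 are therefore not all separate checks of the results. In points, the Dnmt3b 5′ end turned to 0.021 (20 reads), 0.066 (all 15 mice), 0.0101 (limma with coverage), 0.173 (wider window) and 0.012 (without the 3 mice), and the Dnmt3b body to -0.767 (means over CpGs). The Dnmt3a body turned to 0.014 (no upper limit), 0.432 (limma with maternal level) and 0.357 (means over CpGs), and the Dnmt1 body to -0.045 (means over CpGs). Uhrf1 turned to -0.153 (limma with coverage) and -0.223 (without the 3 mice) at the 5′ end and to -2.70 (wider window) and -0.618 (without the 3 mice) in the body. The Tet3 5′ end turned to -0.143 (all 15 mice), the Bhmt 5′ end to 0.138 (limma with coverage), the Tet1 body to -0.889 (limma with maternal level), the Tet1 5′ end to 0.019 (without the 3 mice) and the Suz12 body to 1.74 (wider window). The cause was not tested. Depth limits the precision of single CpGs, and levels up to those of the unmethylated control (0.666%) cannot be told from incomplete conversion.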
